A study of Homo sapiens with 16 samples.

Results

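The broad H3K27me3 domains of BE2C cells were the stretches of 20 kb or more that the polycomb mark covered without a break wider than 2 kb in both control siRNA libraries. Islands, the enriched regions called by SICER, were reduced to the base pairs called in both H3K27me3 siCtrl libraries, pieces within 2 kb of each other were joined, and joined domains of at least 20 kb on the 22 autosomes were kept, leaving out chromosome 2 from 16000000 to 17000000 around MYCN, which is amplified in this line. This gave 293 domains out of 7664 joined domains of any width (3.82%), and they held 9.36 Mb, or 21.6% of the joined length. Another 5937 domains were 2 kb to under 20 kb wide and are called short here. The domains were chosen on the H3K27me3 siCtrl libraries, so the width of a domain, its H3K27me3 values in siCtrl and the H3K27me3 contrast with siKDM6B33 are given as a description with no test.

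BE2C is an established human neuroblastoma cell line with amplified MYCN. CUT&Tag, in which an antibody to a histone mark tethers a transposase to the chromatin beside it, gave the maps of H3K27me3, the trimethylation of lysine 27 on histone H3, and of H3K4me1, the monomethylation of its lysine 4. For each mark there were 2 libraries of cells given a control siRNA (siCtrl) and 2 of cells given the siRNA siKDM6B33 against KDM6B, and 2 of cells given 0.1% DMSO and 2 of cells that had received GSK-J4 at 2.5 µM, which inhibits KDM6 demethylases, all at 72 h, which made 16 libraries in 8 groups. The knockdown and the compound had separate controls, siCtrl and DMSO. No RNA was measured in these libraries, so the loss of KDM6B itself was not checked here.

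H3K27me3 is written by polycomb repressive complex 2 (PRC2) and is known for silencing developmental genes in cells of other lineages. KDM6B is a demethylase that removes it. H3K4me1 is known for marking enhancers and the flanks of promoters, and where it lies together with H3K27me3 the element is often called poised. In most cell types PRC2 is recruited to CpG-rich DNA, and the widest H3K27me3 domains sit over clusters of developmental transcription factor genes.

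The sequences below show the DNA at the strongest H3K27me3 peak of the 3 widest domains and of the domains with the highest and the lowest ratio of observed to expected CpG. Each is the 120 bases around the summit with the highest fold in the first siCtrl library, on the plus strand of hg19, read from GRCh37, 5′ to 3′, with CG dinucleotides in capitals.
RBFOX3 domain, chr17:77206946-77207065: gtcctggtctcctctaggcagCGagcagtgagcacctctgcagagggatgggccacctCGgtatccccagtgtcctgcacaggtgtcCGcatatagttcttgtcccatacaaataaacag
HOXA domain, chr7:27239865-27239984: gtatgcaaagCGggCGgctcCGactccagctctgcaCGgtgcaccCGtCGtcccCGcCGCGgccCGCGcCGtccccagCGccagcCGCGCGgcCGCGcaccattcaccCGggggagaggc
EN2 domain, chr7:155242505-155242624: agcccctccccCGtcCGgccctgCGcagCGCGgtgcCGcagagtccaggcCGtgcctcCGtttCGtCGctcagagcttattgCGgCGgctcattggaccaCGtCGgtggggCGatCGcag
SP9 domain, highest CpG ratio, chr2:175206382-175206501: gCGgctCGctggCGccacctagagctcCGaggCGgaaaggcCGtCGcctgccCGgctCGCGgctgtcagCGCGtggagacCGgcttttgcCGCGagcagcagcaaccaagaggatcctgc
RNF43 domain, lowest CpG ratio, chr17:56476844-56476963: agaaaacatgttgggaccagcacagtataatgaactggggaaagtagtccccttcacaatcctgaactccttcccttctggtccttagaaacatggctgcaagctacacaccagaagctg
The RBFOX3 window lay in an intron of that gene and held 3 CG dinucleotides. The HOXA window lay in an intron of the long noncoding RNA HOTTIP and held 19, the EN2 window lay in an intron of the noncoding EN2-DT and held 16, and the SP9 window lay outside annotated genes and held 15. The RNF43 window lay in an intron of that gene and held 0. The HOXA, EN2, SP9 and RBFOX3 windows were inside an H3K27me3 island in 8 of 8 libraries, and the RNF43 window in 5 of 8. An H3K4me1 island overlapped the HOXA window in 7 of 8 libraries, the EN2 window in 6, the RBFOX3 window in 4, the SP9 window in 3 and the RNF43 window in 0.

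The 293 domains had a median width of 26.4 kb, with quartiles at 22.8 and 34.4 kb, 105 were at least 30 kb wide and 23 at least 50 kb. The widest, chr17:77145001-77341200, spanned 196.2 kb inside RBFOX3, which encodes the neuronal splicing factor NeuN, and held no protein-coding start. Next came the HOXA cluster (chr7:27126801-27268400, 141.6 kb), the domain around EN2 (chr7:155161601-155294200, 132.6 kb), a homeobox gene of midbrain and hindbrain development, and the HOXB cluster (chr17:46617801-46726800, 109 kb). The next 6 were a domain with no start, nearest to IGF1R (93 kb), the domains holding UNCX (88.4 kb), IRF8 (78.6 kb) and CBFA2T3 (74 kb), a domain within KIRREL3 (73.4 kb) and one holding CFAP74, GABRD and PRKCZ (70.4 kb). Among those just inside the limit of 20 kb were the domains of FOXA2, of ELANE with CFD, of LHX4, and one nearest B4GALNT2, at 20 kb each. Just outside were those of DMRTA2, KRT79 and BMP4, at 19.8 kb each.

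Many developmental transcription factor genes had their start in these domains. A protein-coding gene started in 177 of the 293 domains, and 243 of 19229 autosomal protein-coding genes (1.26%) had their start in one. By list, 25 of 39 HOX genes (64.1%) started in 5 broad domains, and 3 more in short ones. The HOX genes set position along the body axis, and here the whole of HOXA and most of HOXB each lay in 1 domain, HOXB13, HOXC12 with HOXC13, and HOXD11 to HOXD13 in others. Of 109 homeobox genes outside the clusters, 45 (41.3%) had their start in a broad domain, among them EN2, UNCX, IRX4, LMX1B, NKX2-5 and CDX2. Of 9 PAX genes there were 5 (PAX1, PAX2, PAX3, PAX6 and PAX7), of 49 FOX genes 11 (FOXA1, FOXA2 and FOXF1 among them), of 29 neural basic helix-loop-helix genes 7 (OLIG1, OLIG2 and NEUROG1 among them), of 16 T-box genes 3 (TBX1, TBX5 and TBX15), of 18 SOX genes 2 (SOX1 and SOX17), and of 5 GATA genes 1 (GATA4).

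WNT ligand genes were mostly in shorter domains. Of 19 WNT ligand genes, 2 (WNT1 and WNT10B, in 1 domain) were in broad and 13 in short domains. The SOX, neural basic helix-loop-helix and T-box lists also had more starts in short than in broad domains, with 7, 12 and 5 in short ones. The lists of homeobox genes outside the clusters, FOX and PAX genes had fewer in short domains, with 35, 10 and 3, and the GATA list had 1 in each. Of 55 keratin genes 3 were in broad and 12 in short domains, of 413 olfactory receptor genes 1 and 9, and of 497 ZNF zinc finger genes 0 and 7. No start of the 53 clustered protocadherin, 80 ribosomal protein, 32 E2F cell cycle and 10 PRC2 genes lay in a broad or a short domain. Of 10 markers of the adrenergic state of neuroblastoma, the state of BE2C, 0 lay in either, while of 10 mesenchymal markers 4 lay in short domains and 0 in broad ones, and of 6 markers of unrelated lineages 3 (CDX2, GATA4 and PAX1) lay in broad ones and 1 in a short one. This contrast is that of siCtrl. An H3K27me3 island lay within 1 kb of 4 and 3 adrenergic and 3 and 2 mesenchymal starts in the DMSO libraries. With GSK-J4 it was 4 and 5 against 4 and 2, and with siKDM6B33 2 and 1 against 6 and 6.

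**Figure D1:**
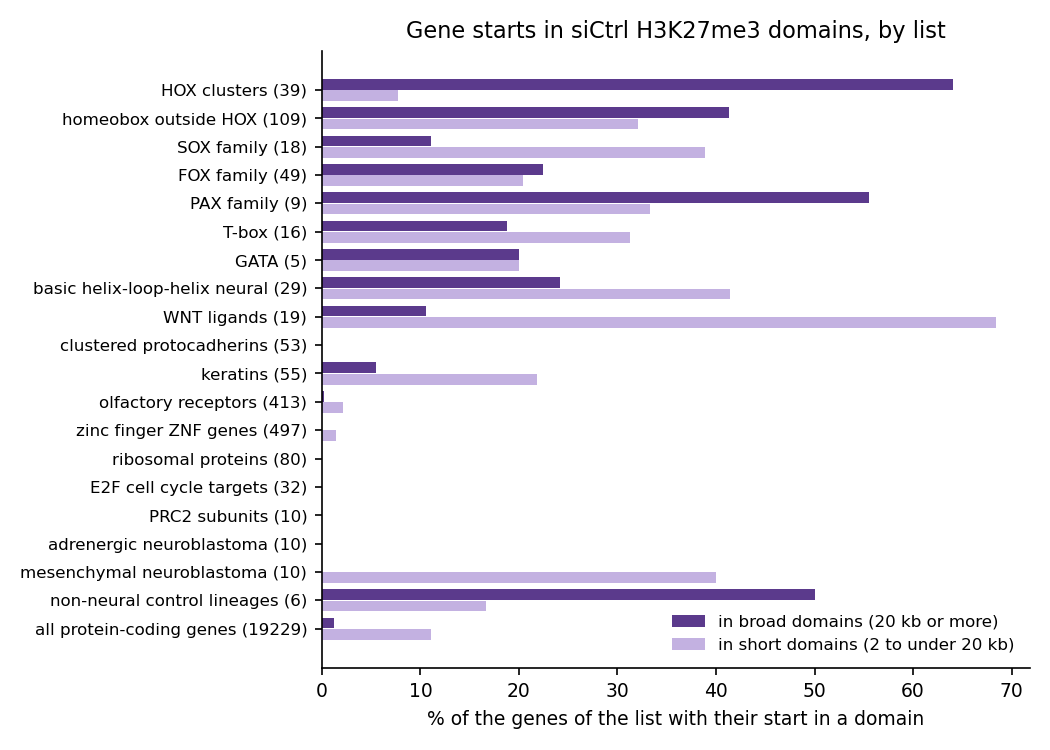
Percent of the genes of each list (number of autosomal genes in brackets) whose transcription start lay in a broad domain (dark bars) or a short domain (light bars) of H3K27me3 in siCtrl. HOX genes reached 64.1% in broad and 7.69% in short domains, WNT ligands 10.5% and 68.4%, and all protein-coding genes 1.26% and 11.1%.

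Broad domains were GC-rich, and lay near chromosome ends more than the short ones. The median GC content was 51.0% in broad and in short domains, with 41.0% over all autosomes. The ratio of observed to expected CpG had a median of 0.373 in broad domains, 0.338 in short ones and 0.237 over the autosomes. The short domains spread more widely, with an upper quartile of 0.508 against 0.467, and CpG per kb was 26.7 in short and 26.5 in broad domains. Of the broad domains 111 (37.9%) lay within 5 Mb of a chromosome end, a zone that held 21.5% of the short domains and 7.64% of autosomal length. Chromosomes 16 and 17 held 27 and 22 of them, 29.9 and 27.1 per 100 Mb, while chromosome 3 held 3 and chromosome 18 held 2. Besides protein-coding genes, 235 lncRNA and 16 miRNA genes started inside.

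The domains fell into 3 classes by gene content, formed after values had been seen, that differed in these features. In 75 domains a gene of the 8 transcription factor lists started, in 102 only other protein-coding genes, some of them also transcription factors such as OSR1 or SP9, and in 116 none. Median width was 29.6, 25 and 26.9 kb in this order, and the median CpG ratio 0.484, 0.366 and 0.329. Domains within 5 Mb of a chromosome end made up 16% of the first class, 33.3% of the second and 56.0% of the third.

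Depth differed between groups. The genome background, in tags over an average base, was 0.0395 and 0.0401 in the H3K27me3 siCtrl libraries and 0.0539 and 0.0529 with siKDM6B33, 0.0298 and 0.0338 for DMSO, then 0.0507 and 0.0371 for GSK-J4. For H3K4me1 it was 0.0902 and 0.0849, 0.107 and 0.105, 0.0569 and 0.0483, and 0.0547 and 0.0559. Knockdown libraries were thus deeper than their controls for both marks, and the part of depth in the differences below was not tested beyond the values at equal covered length and those not divided by the background. The first GSK-J4 library of H3K27me3 stood apart: the longest island covered a median of 40% of a broad domain there, against 65.2% to 80% in the other 7, and only 6 domains lay whole in 1 island, against 39 to 95. With DMSO the 2 H3K4me1 libraries also differed, at 32.9% and 22.5% of broad domain length. The study calls the replicates biological, and the labels do not say whether they were separate cultures. Tests measure the spread between these libraries, and 2 libraries against 2 cannot give an exact permutation p under 0.333.

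In the knockdown, islands of H3K27me3 still covered most of the length of broad domains, and the density of the signal over the genome background was lower. Islands covered 95.7% and 95.8% of broad domain length in siCtrl and 94.7% and 94.4% with siKDM6B33, a difference of −1.24 percentage points. Short domains went from 97.1% and 97.2% to 90.5% and 89.7%. Since the domains were drawn where siCtrl was covered, its values are raised by the choice. With domains drawn from 1 siCtrl library and control coverage read in the other, coverage was 2.53 or 3.48 points higher with siKDM6B33 than in siCtrl, so the direction rests on how domains were chosen. Of the 293 domains 23 were lower by at least 10 points with groups that did not overlap (background 17.2% of 7664 joined domains) and 3 were higher (background 1.14%), from which nothing is read because the rule used this contrast.

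Density was taken as the mean number of tags over the densest 10 kb around a narrow peak of the domain, divided by the genome background of the library. The median over broad domains was 52.3 and 51.9 in siCtrl and 34.4 and 35.2 with siKDM6B33, a mean difference of −0.57 on the log2 scale. Of 264 domains with a peak in all 4 libraries, 216 (81.8%) were lower in both knockdown libraries than in both controls and 15 (5.68%) were higher, beside backgrounds of 65.9% and 15.9% of the 3284 joined domains of any width with such peaks. Over short domains the difference was −0.23. Since the rule used this contrast, nothing is read from these counts. With domains drawn from 1 siCtrl library and control density read in the other, the difference was −0.52 or −0.49. The genome background, by which density is divided, was higher in both knockdown libraries, and in tags not divided by it the difference was −0.15. The share of the summed island score of a library that lay in broad domains was 31.5% and 31.4% in siCtrl and 21.4% and 21.7% with siKDM6B33. In the HOXA domain the density was 140 and 132 in siCtrl against 62.5 and 69.4 with siKDM6B33, and in the RBFOX3 domain 81.3 and 82.4 against 51.9 and 57.6. In the domain nearest IGF1R, which has no start, it was 28.6 and 26.5 against 24.6 and 23.

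The same joining and width limit gave more wide domains with siKDM6B33, with a smaller surplus at equal covered length. Applied to each library alone, it gave 401 and 379 domains of 20 kb or more in siCtrl, and 767 and 761 with siKDM6B33. The knockdown libraries covered more of the genome, 88.9 and 86.4 Mb against 52.9 and 53.4 Mb in siCtrl, and with every list trimmed to the same covered length the mean number was 504 with siKDM6B33 against 389.5 in siCtrl, which took the surplus from 374 to 114.5. Taken from both libraries of the group as in the rule, 554 domains were found with siKDM6B33, of which 250 (45.1%) touched one of the 293, and 87.4% of the 293 were touched. Within 5 kb outside the edge, islands covered 44.5% and 42.1% with siKDM6B33 against 21.5% and 23.6% in siCtrl, and 15 to 20 kb away 39.5% and 37.8% against 29.8% and 30.04%. The rule asks for a gap in siCtrl beyond each edge, so the siCtrl values of the first window are lowered by it and nothing is read from that contrast.

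**Figure D2:**
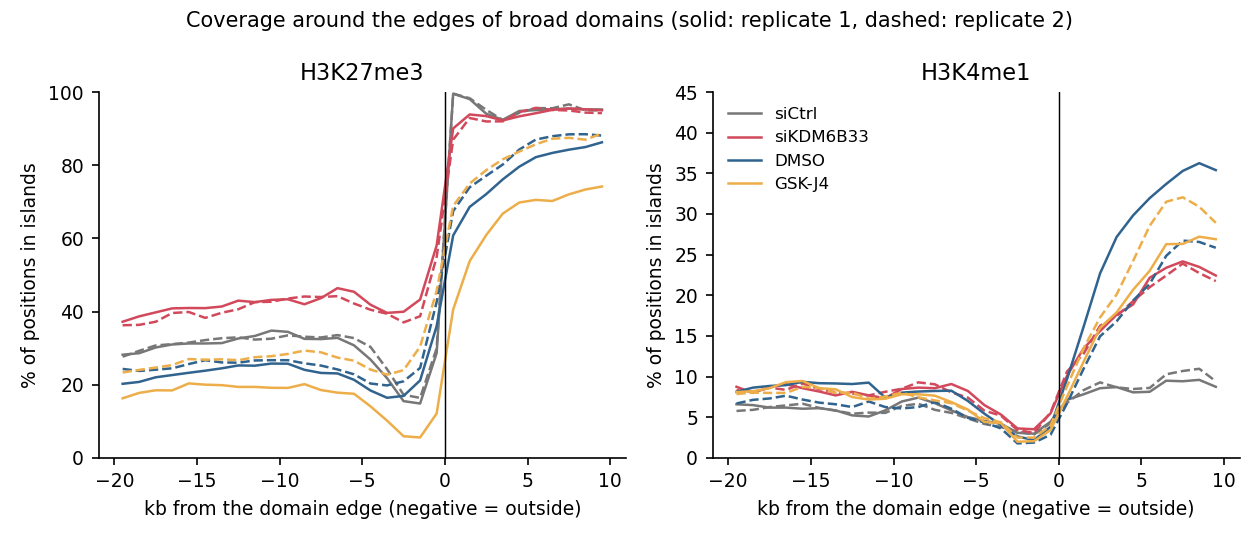
Percent of positions covered by islands against distance from the edge of the 293 broad domains (both edges pooled, positive values inside), for H3K27me3 (left) and H3K4me1 (right), with 1 line for each library. Outside the edge the 2 siKDM6B33 libraries lie above the others in H3K27me3, and from 1.5 kb inside it onwards the 2 siCtrl libraries stay below the other 6 in H3K4me1.

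With GSK-J4 the density of H3K27me3 in broad domains was lower than with DMSO in both libraries, whereas their coverage overlapped for the lists as called. DMSO libraries had a median density of 38.4 and 34.7, GSK-J4 libraries one of 20.05 and 23. The groups did not overlap, the mean difference was −0.79 on the log2 scale, and the exact permutation p was 0.333, the smallest possible. Both GSK-J4 libraries had a higher genome background than both DMSO libraries, and in tags not divided by it GSK-J4 differed from DMSO by −0.34 on the log2 scale. Of 225 domains with a peak in all 4 libraries 204 (90.7%) were lower in both GSK-J4 libraries and 3 (1.33%) higher, where the backgrounds were 73.5% and 4.17% of 1944 joined domains of any width. The difference was −0.42 over the short domains. In broad domains it held without each library in turn, at −0.84 to −0.72. The share of island score in broad domains was 24.5% and 23.2% for DMSO and 13.2% and 16.1% for GSK-J4 (exact permutation p = 0.333).

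With DMSO islands covered 82.4% and 86.2% of broad domain length, and with GSK-J4 70.1% and 85.9%. The groups overlapped, and the difference of −6.30 points had an exact permutation p of 0.667. At equal covered length the groups did not overlap, with 79.7% and 79.5% for DMSO against 58.8% and 75.01% for GSK-J4, a difference of −12.7 points with an exact permutation p of 0.333, and 80 domains (27.3%) were called lower and 1 (0.341%) higher, where the backgrounds at that length were 8.91% and 1.24%. For the lists as called, the difference without the first GSK-J4 library was +1.62 points. Of the 293 domains 52 (17.7%) were lower with groups that did not overlap and means at least 10 points apart (background 7.20%), and 8 were higher (background 4.02%). Without the first GSK-J4 library 39 were lower and 57 higher, without the second 164 and 6, and without the first DMSO library 94 and 19. The share called lower rose with width over all joined domains, from 4.39% at 2 to under 5 kb through 12.2% and 16.8% to 17.7% at 20 kb or more.

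The 5 largest differences to lower H3K27me3 coverage under GSK-J4 began with the domain nearest THEM4 (chr1:151887601-151911000), which was covered to 40.2% and 92.3% with DMSO and to 0% and 0% with GSK-J4. The domain in C16orf95 (chr16:87259601-87283000) had 77.8% and 76.9% against 5.98% and 29.1%. The domain of TM4SF5, VMO1 and GLTPD2 (chr17:4672601-4693600) had 70.5% and 96.2% against 39.0% and 26.7%. In SLC22A23 the values were 87.1% and 97.0% against 22.7% and 75.8%, and in IKZF3, which encodes a lymphoid transcription factor, 73.9% and 77.6% against 32.1% and 40%. In these 5 the groups did not overlap, although replicates differed by more than 50 points at THEM4 and SLC22A23.

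The 5 with the largest difference to higher coverage were covered to 51.1% or less with DMSO. They lay on chromosome 8 nearest ZNF703 (0% and 22.6% in DMSO libraries, 51.3% and 56.5% in GSK-J4 libraries), at PCK1, a gluconeogenic enzyme (0% and 0% against 13.7% and 66.7%), at the hair keratin KRT83 (25.7% and 31.4% against 55.2% and 72.4%), in POU2AF1 (51.1% and 44.6% against 53.3% and 97.8%) and in LMX1B (45.9% and 45.9% against 68.9% and 59.3%). All 5 were covered to 85.7% or more in both siCtrl libraries by choice. At PCK1 the siKDM6B33 libraries had 38.5% and 53.8%.

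Broad domains had more H3K27me3 coverage than short ones in the libraries that had no part in the choice. Over the 4 compound libraries broad domains were covered 25.5 ± 4.30 percentage points more than short ones (SD, n = 4), higher in 4 of 4 libraries. The exact sign-flip permutation p was 0.125, the smallest possible with 4. Width in siCtrl divided the broad from the short domains, so their order is not independent of the choice. Domains of 2 to under 5 kb were covered to 99.4% in the first siCtrl library and to 32.1% in the first DMSO library. How much of the difference comes from this choice was not tested. Coverage rose at each step of width in every one of these libraries, and in the second DMSO library it was 34.6% at 2 to under 5 kb, 64.5% at 5 to under 10 kb, 77.3% at 10 to under 20 kb, 82.9% at 20 to under 30 kb, 86.5% at 30 to under 50 kb and 93.8% at 50 kb or more. By the rule applied to both libraries of a group, DMSO had 351 domains of 20 kb or more and GSK-J4 258, touching 60.8% and 42.0% of the 293. Single DMSO libraries had 474 and 570, and single GSK-J4 libraries 299 and 667 (exact permutation p = 1).

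**Figure D3:**
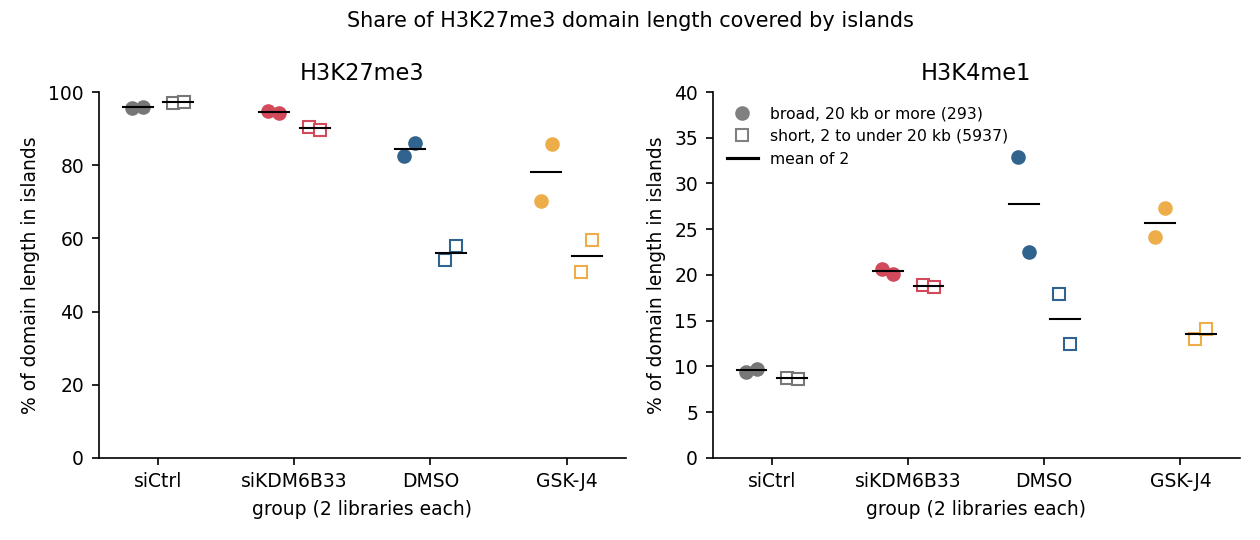
Percent of the summed length of broad domains (filled circles) and short domains (open squares) inside islands of H3K27me3 (left) and H3K4me1 (right), 2 libraries a group with their mean as a line. H3K27me3 covers 70.1% to 86.2% of broad and 50.8% to 59.6% of short domains in the compound libraries, and H3K4me1 is lowest in siCtrl, at 9.39% and 9.73% of broad domains.

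**Figure D4:**
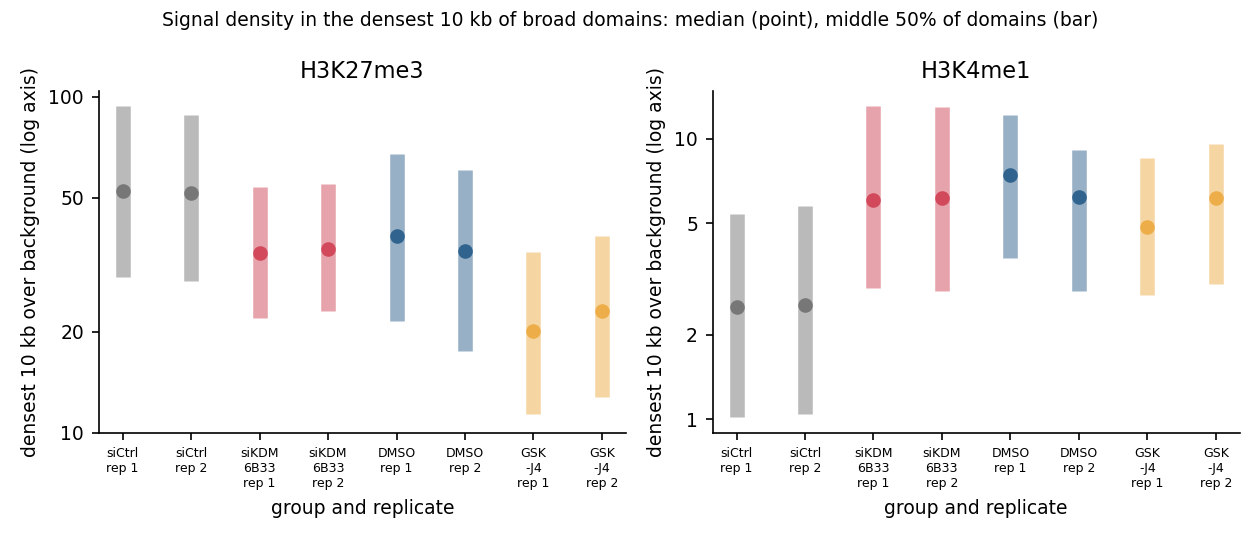
Density of the densest 10 kb of broad domains over the genome background of the library (log axis), for the domains that held a narrow peak in that library, with the median as a point and the middle 50% of domains as a bar. For H3K27me3 the medians are 52.3 and 51.9 in siCtrl and 20.05 and 23 with GSK-J4. For H3K4me1 they are 2.51 and 2.56 in siCtrl and 4.85 to 7.41 in the other 6 libraries.

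H3K4me1 in broad domains was higher with siKDM6B33 than in siCtrl. Islands covered 9.39% and 9.73% of broad domain length in siCtrl and 20.7% and 20.1% with siKDM6B33, a difference of 10.9 points (20.4% ± 0.387 against 9.56% ± 0.237, SD, n = 2 each). The groups did not overlap and the exact permutation p was 0.333. Over the rest of the autosomes coverage was 3.51% and 3.36% in siCtrl and 3.87% and 3.86% with siKDM6B33. Short domains also had more, with 8.70% and 8.66% against 18.9% and 18.7%. With every H3K4me1 list trimmed to the same covered length, the broad domains had 4.30% and 4.75% in siCtrl and 11.8% and 10.9% with siKDM6B33.

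Of the 293 broad domains 122 (41.6%) were higher in H3K4me1 coverage by at least 10 points with groups that did not overlap (background 19.5%) and 5 were lower (background 0.913%). At equal covered length 78 (26.6%) were higher and 9 (3.07%) lower, with backgrounds at that length of 12.3% and 1.16%. The share called higher was 15.5% at 2 to under 5 kb, 23.7% at 5 to under 10 kb, 31.5% at 10 to under 20 kb and 41.6% at 20 kb or more. Broad domains without any H3K4me1 island numbered 191 and 188 in siCtrl and 91 and 93 with siKDM6B33. Median density in broad domains, among those with a peak, was 2.51 and 2.56 in siCtrl and 6.04 and 6.13 with siKDM6B33. Over 168 domains with a peak in all 4 libraries the mean log2 difference was 1.47 (exact permutation p = 0.333), and 139 (82.7%) were higher and 22 (13.1%) lower. These shares were near the backgrounds of 81.5% and 13.1% of 1590 joined domains of any width, and the short domains differed by 1.27.

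The 5 largest gains of H3K4me1 in broad domains with siKDM6B33 were in domains with a protein-coding start, 3 of them of a gene of the transcription factor lists (BARX1, NKX3-2 and LHX5). At OSR1 (chr2:19547401-19568600), a zinc finger factor of kidney and heart development, coverage was 0% and 0% in siCtrl and 73.6% and 61.3% with siKDM6B33, and H3K27me3 covered it to 100% in these 4 libraries. At FGFRL1, a receptor of the fibroblast growth factor family, it was 18.3% and 22.6% against 73.0% and 89.6%. At BARX1, a homeobox gene of the jaw and stomach, it was 0% and 0% against 58.1% and 60.7%. At NKX3-2, which acts in cartilage and spleen, it was 0% and 0% against 71.4% and 42.2%, and at LHX5, a forebrain factor, 0% and 0% against 58.9% and 51.7%. In the 4 compound libraries coverage was 60.4% to 71.7% at OSR1, 67.0% to 73.9% at FGFRL1, 70.1% to 82.1% at BARX1 and 53.0% to 64.2% at LHX5. At NKX3-2 it varied more, with 78.9% and 27.9% for DMSO and 16.3% and 55.1% for GSK-J4.

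The 5 domains called lower were the one on chromosome 8 nearest ZNF703 (47.8% and 45.2% against 13.9% and 13.0%), that of PTH2, GFY and SLC17A7 (65.8% and 73.7% against 53.5% and 54.4%), NKX6-2 (34.3% and 37.2% against 24.4% and 23.8%), one in SDK2 (46.0% and 38.7% against 31.4% and 31.4%) and one in ESRRB (30.4% and 25.4% against 20.4% and 13.8%). A domain could be called lower only where siCtrl had at least 10% coverage. Among the widest domains the pattern was mixed. The HOXA domain had 7.63% and 5.37% in siCtrl against 32.6% and 26.7%, the EN2 domain 0% and 0% against 20.8% and 20.2%, and the HOXB domain 0% and 0% against 20.0% and 11.7%. The RBFOX3 domain had 0% and 1.02% against 2.45% and 2.04%, and the domain nearest IGF1R had 0% in all 8 libraries.

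H3K4me1 covered a larger part of broad domain sequence near gene starts than away from them, in siCtrl and with siKDM6B33. Within 2 kb of a protein-coding or lncRNA start, 1.57 Mb in all, islands covered 21.2% and 21.6% in siCtrl and 50.0% and 48.1% with siKDM6B33. In the other 7.79 Mb they covered 7.01% and 7.33% against 14.8% and 14.5%. The gain was 27.6 points near starts and 7.49 away from them, and the difference of 20.1 points between these gains had an exact permutation p of 0.333. As a ratio the step was smaller, since coverage near starts was 3.03 and 2.95 times that away from them in siCtrl and 3.38 and 3.31 times with siKDM6B33. Most of the covered length lay away from starts, and the part near them was 37.9% and 37.2% in siCtrl and 40.5% and 39.997% with siKDM6B33. An H3K4me1 island lay within 1 kb of 84 and 89 of the 243 protein-coding starts in siCtrl and of 181 and 175 with siKDM6B33. This was not confined to broad domains: of all 19229 starts, 25.4% and 25.7% had one in siCtrl and 59.4% and 59.4% with siKDM6B33, a gain of 33.8 points, beside 37.7 points in broad domains and 38.8 in short ones.

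The compound libraries had more H3K4me1 in broad domains than siCtrl, and for the lists as called DMSO and GSK-J4 overlapped. H3K4me1 islands covered 32.9% and 22.5% in the DMSO libraries, 24.2% and 27.3% in the GSK-J4 libraries, a difference of −1.99 points (exact permutation p = 1), and +3.18 points without the first DMSO library. At equal covered length the groups did not overlap, with 25.9% and 22.5% for DMSO against 19.7% and 22.2% for GSK-J4, a difference of −3.23 points (exact permutation p = 0.333), and 38 domains (13.0%) were called lower and 4 (1.37%) higher, against backgrounds at that length of 4.15% and 1.32%. Coverage with siKDM6B33 thus lay below that of both groups of the compound experiment, while its median density, 6.04 and 6.13, lay between the 2 GSK-J4 values. The compound experiment had its own control, so a difference between siCtrl and DMSO cannot be told apart from one between experiments. Median density was 7.41 and 6.19 in DMSO, 4.85 and 6.13 in GSK-J4, with a log2 difference of −0.24 (exact permutation p = 0.667), and of 152 domains with a peak in all 4 libraries 46 (30.3%) were lower and 11 (7.24%) higher, beside backgrounds of 42.5% and 9.64% of 1048 joined domains. Of the 293 domains 14 were lower (background 3.01%) and 6 higher (background 1.83%), counts that became 94 and 8 without the second DMSO library and 11 and 31 without the first. The H3K4me1 islands of broad domains were lower with GSK-J4 at GLI1 with ARHGAP9 (77.8% and 72.6% with DMSO against 39.3% and 61.5%), in PRDM16 (33.3% and 20.4% against 6.02% and 0%), at NKX1-1 (80.2% and 76.6% against 54.1% and 57.7%), near ANXA2R (21.2% and 20.3% against 0% and 0%) and at VSX1 (34.6% and 26.2% against 0% and 24.3%). They were higher at ICOSLG (47.7% and 35.2% against 56.2% and 66.4%), next to the widest domain in RBFOX3 (33.6% and 39.3% against 53.6% and 53.9%), in SDK2 (36.5% and 34.3% against 43.8% and 57.7%), at IRX4 (51.2% and 34.9% against 53.0% and 60.9%) and at ADGRA1 (70.9% and 57.3% against 72.7% and 82.7%).

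Over all 8 H3K4me1 libraries broad domains were covered 6.82 ± 6.10 points more than short ones (SD, n = 8), higher in 8 of 8 libraries (exact sign-flip permutation p = 0.0078). That p is the smallest possible with 8 libraries, which were 2 each of siCtrl, siKDM6B33, DMSO and GSK-J4 and not replicates of a single condition. The difference was 0.694 and 1.07 points in siCtrl, 1.84 and 1.49 with siKDM6B33, and between 10.15 and 14.98 in the compound libraries. At equal covered length it was negative in the knockdown experiment, with 4.30% of broad against 4.71% of short domains in the first siCtrl library, and the exact p over 8 libraries was 0.125. H3K4me1 covered the inside of broad domains more than their flanks. In the first siKDM6B33 library it covered 23.1% of positions 5 to 10 kb inside the edge, 15.1% within 5 kb inside and 4.88% within 5 kb outside. In siCtrl the steps were small, 9.07%, 8.05% and 3.84% in the first library. Farther out, 15 to 20 kb outside the edge, H3K4me1 covered 6.29% in that siCtrl library and 8.61% in the first siKDM6B33 library. Part of the step at the edge is thus a dip beside it, where the rule asks for a gap in siCtrl H3K27me3.

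Domains with a transcription factor start had the highest coverage by H3K4me1 and, outside the libraries that chose them, the most H3K27me3. H3K4me1 covered 13.6% and 13.5% of these 75 domains in siCtrl, 35.4% and 33.6% with siKDM6B33, 52.4% and 34.0% for DMSO, then 36.6% and 42.8% for GSK-J4. In the 102 domains with other starts it covered 11.9% and 13.2%, 23% and 22.6%, 32.5% and 25.5%, and 26.8% and 28.5%. In the 116 domains without a start the values were 4.19% and 4.04%, 7.86% and 8.19%, 18.7% and 11.7%, and 12.8% and 14.8%. The first class exceeded the third by 22.5 ± 8.72 points (SD, n = 8) and the second by 9.75 ± 6.41, and the second exceeded the third by 12.7 ± 2.71, in 8 of 8 libraries each (exact sign-flip permutation p = 0.0078 for all 3, or 0.0156 after Benjamini-Hochberg adjustment over the 6 comparisons of classes in both marks). These 8 libraries were 2 each of siCtrl, siKDM6B33, DMSO and GSK-J4 from the same cell line, read over the same domains. The p is the smallest possible with 8 and measures only their agreement in sign. The classes were formed after values had been seen, which the adjustment does not correct. H3K4me1 density did not follow the order of the classes in the second siCtrl library. Its median in siCtrl was 2.92 and 2.71 in the first class, 2.84 and 3.16 in the second and 2.12 and 1.36 in the third. With siKDM6B33 it was 10.9 and 10.7, 7.54 and 6.94, and 3.14 and 3.32. Against siCtrl, 55 of the 75, 47 of the 102 and 20 of the 116 domains were called higher in H3K4me1 with siKDM6B33, or 73.3%, 46.1% and 17.2%, beside the background of 19.5% of all joined domains, which the class without a start did not exceed.

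For H3K27me3 the 75 domains were covered to 91.7% and 93.4% in DMSO libraries, 80.4% and 91.8% in GSK-J4 libraries, and the 116 without a start to 76.0% and 81.2% and to 62.1% and 80.3%. The difference of 14.4 ± 3.16 points (SD, n = 4) had the same sign in 4 of 4 libraries, with an exact sign-flip permutation p of 0.125, the smallest possible, and 0.125 after adjustment. At equal covered length this difference was 23.9 points. Density had the same order, with a median of 70.1 and 61.8 in the DMSO libraries in the first class, 38.3 and 35.3 in the second and 18.8 and 17.5 in the third. With GSK-J4 these were 33.6 and 37.2, 21.7 and 23.9, and 11.4 and 12.8. Domains called lower in H3K27me3 with GSK-J4 were 15 of 75, 12 of 102 and 25 of 116 (20%, 11.8% and 21.6%), beside backgrounds of 7.20% of all joined domains and 16.8% of those 10 to under 20 kb wide.

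Single members show how the marks combined. The CDX2 domain (chr13:28527001-28557400), over a regulator of intestinal identity, was inside H3K27me3 islands to 88.8% or more in all 8 libraries, while H3K4me1 covered 0% and 0% in siCtrl, 38.8% and 44.1% with siKDM6B33, 62.5% and 39.5% for DMSO, then 50.7% and 50.0% for GSK-J4. PAX6 (chr11:31818201-31849800), a regulator of eye and brain development, had 34.8% and 26.6%, 60.8% and 65.8%, 60.8% and 45.6%, and 48.1% and 50.0%, with H3K27me3 at 91.1% or more throughout. The domain of SHH, the ligand of hedgehog signalling, had 11.4% and 10.4% in siCtrl and 33.3% and 29.3% with siKDM6B33. In the domain of EVX2 and HOXD11 to HOXD13 H3K4me1 was at 45.3% and 34.9% in siCtrl against 81.4% and 73.8% with siKDM6B33, where H3K27me3 islands still covered 78.5% and 83.1% of it. At GATA4, a regulator of heart and endoderm, H3K4me1 was at 40.3% and 35.5% against 82.3% and 71.0%, and H3K27me3 with siKDM6B33 at 56.5% and 61.3%. FOXA2 had no H3K4me1 island in 7 of 8 libraries and 26.0% in the second GSK-J4 library. All but FOXA2 were singled out here after their values were seen.

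**Figure D5:**
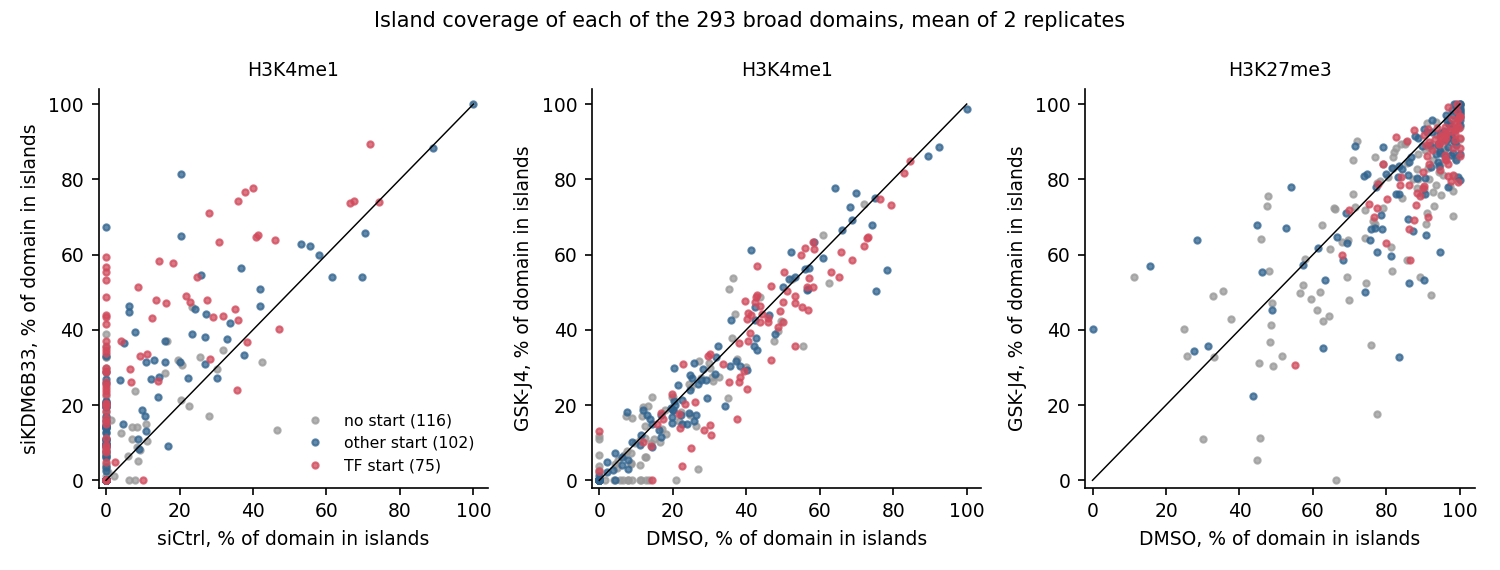
Percent of each of the 293 broad domains inside islands, as the mean of 2 replicates, with the treated group on the vertical and its control on the horizontal axis, for H3K4me1 with siKDM6B33 against siCtrl (left), H3K4me1 with GSK-J4 against DMSO (middle) and H3K27me3 with GSK-J4 against DMSO (right). Colours give the class by gene content: 75 domains with a start of a transcription factor list (TF start), 102 with other starts and 116 with none. Most points lie above the diagonal on the left, with 122 called higher and 5 lower.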

How the data were processed

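For each of the 16 libraries the authors called islands and narrow peaks, without pooling replicates. Reads were trimmed with Trim Galore 0.4.4, aligned to hg19 with BWA 0.7.12 and processed with SAMtools 1.3.1, Picard 1.65 and bedtools 2.25.0, per the labels. The authors called islands with SICER 1.1, and the deposited score is summed over the windows of an island and so increases with its width and with depth. Islands lay on a 200-bp grid with gaps of at least 800 bp. Narrow peaks came from MACS2 2.1.1 per the labels, and the deposited lists give a fold (a ratio over local background) with −log10 p and −log10 q. No reads were used, so the counts behind islands are unknown and neither spike-in scaling nor the study's voom and limma test was run.

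Lists were processed in Python 3.11.15 with NumPy 2.4.6 and pandas 2.3.3. Coverage is the percent of domain length inside islands. A domain was called where both treated libraries lay above, or below, both controls and the means differed by at least 10 percentage points. The background is the same call over all 7664 joined domains. Each peak's fold and −log10 p were solved for its tags and local background over 10 kb, which worked for 100% of peaks, and the lowest background among the 20 commonest pairs was the genome background. Steps were tested on simulated data. Groups were compared by exact two-sided permutation over libraries, and broad with short domains, or classes of domains, by two-sided sign-flip over libraries. Genes came from GENCODE 44 mapped to GRCh37, 1 start a gene.

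The domains and gene lists were chosen with earlier results of these data known. Domains named are the 10 widest, 3 of the narrowest, the 3 widest below the limit, the 5 largest differences each way with groups apart in the comparisons not used by the rule, starts of the listed genes and, for sequences, the highest and lowest CpG ratio outside chromosome 8. SHH was singled out after its values were seen, and density, the classes by gene content and the split at starts were likewise added. Median summits of 3 to 9 tags limit the peak values, and values cover only the spread between libraries. Alternatives were other widths, joining distances, source lists, island trims, call limits, a replicate block and leaving out each library.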

Additional observations from a re-analysis of the deposited data

How the results depend on the processing

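Below, pairs of counts are called domains that were higher and lower. Of 319 alternative values, 206 kept their direction and their side of the threshold (0.05) or moved by less than the replicate spread. Of the others 98 moved by more, 13 reversed and 2 became weaker. The exact p cannot fall under 0.333 with 2 libraries against 2, or under 0.125 with 4. For those results the side of the threshold was fixed in advance, so keeping it shows nothing. Backgrounds over all joined domains are given above only for the lists as called and at equal covered length, so the other counts are not set against one. At 15 kb, with 509 domains, the counts were 9 and 44 for H3K27me3 with siKDM6B33, 13 and 93 with GSK-J4, 202 and 10 for H3K4me1 with siKDM6B33 and 11 and 34 with GSK-J4. At 30 kb, with 105 domains, they were in the same order 0 and 2, 1 and 11, 47 and 2, and 3 and 4, as the number of domains changes with the width. Joining pieces within 5 kb (436 domains) gave 58 and 42, 14 and 81, 146 and 8, and 8 and 16, and joining only touching pieces (136 domains) 0 and 4, 3 and 15, 79 and 2, and 6 and 15. Base pairs called in either siCtrl list (527 domains) gave 90 and 50, 22 and 106, 159 and 11, and 6 and 18. At equal covered length the counts were 3 and 50, 1 and 80, 78 and 9, and 4 and 38, and without the lowest-scoring 25% of islands 13 and 22, 13 and 55, 110 and 5, and 12 and 16. With groups apart by any difference they were 49 and 74, 10 and 74, 162 and 11, and 18 and 33, and by at least 20 points 0 and 5, 4 and 25, 72 and 1, and 0 and 4. The 351 domains from the DMSO lists gave 101 lower and 0 higher for H3K27me3 with GSK-J4, 99 and 26 for H3K4me1 with siKDM6B33 and 10 and 14 with GSK-J4. The 554 domains from the siKDM6B33 lists gave 358 and 0 for H3K27me3 and 122 and 8 for H3K4me1 with siKDM6B33. For H3K27me3 both choices raise the coverage of the group that gave the domains, so nothing is read from the direction of these counts.

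The knockdown difference in H3K27me3 coverage was −1.50 points at 15 kb, −0.342 at 30 kb, −2.24 with touching pieces, −4.45 at equal covered length and −0.703 without the lowest 25%. It reversed to 0.959 with 5-kb joining, 1.83 with either list, 20.5 with domains from the siKDM6B33 lists, and 2.53 and 3.48 with separate siCtrl libraries for choice and reading. The share of H3K27me3 score with siKDM6B33 was lower by −13.0 points at 15 kb, −5.91 at 30 kb, −10.8 and −7.66 with the wider and the narrower joining, −11.3 with either list, −8.39 and −5.08 with DMSO and siKDM6B33 domains and −6.41 at equal covered length. The surplus of wide domains per knockdown library was 637.5, 187, 537, 148.5, 114.5 at equal covered length and 330 without the lowest 25%. With 5-kb joining the GSK-J4 surplus reversed to 48.5, and broad minus short H3K4me1 coverage was 2.58 points (exact p = 0.156), and at equal covered length 4.91 (exact p = 0.125). The share of H3K4me1 score reversed to −3.67 with DMSO domains. The log2 H3K27me3 density with siKDM6B33 was −0.63 as the median over peaks, −0.15 in tags not divided by the genome background, and −0.52 and −0.49 with separate siCtrl libraries. The cause of these changes was not tested.

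Leaving out 1 library at a time gave 5 to 6 higher H3K27me3 calls with siKDM6B33, and with GSK-J4 6 to 57 higher and 39 to 164 lower calls, −14.2 to 1.62 points of coverage and −223 to 145 wide domains. For H3K4me1 with GSK-J4 it gave 8 to 31 higher and 11 to 94 lower calls, −7.16 to 3.18 points of coverage and −0.507 to 0.334 points of score share. The log2 H3K27me3 density with siKDM6B33 was −0.59 to −0.54. For H3K4me1 with GSK-J4 the log2 density difference was −0.372 without the second DMSO library and −0.0717 without the first, the ends of its range. With the first DMSO library left out of H3K4me1, or the first GSK-J4 library out of H3K27me3, the coverage difference changed sign. The replicate block left every difference as it was, for example 10.9 points of H3K4me1 coverage with siKDM6B33 (exact p = 0.5, the smallest with 2 pairs), and the calls of single domains were not run under it. Same-numbered replicates deviated together with correlations of −0.178 to 0.136 over domains, so the numbers were not taken to pair the libraries. The median over peaks, the undivided tags, the separate siCtrl libraries for density, the runs without 1 library for density and broad minus short, and the comparisons of classes and of sequence near starts, with their alternatives, were added after seeing the data.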
